A study of Mus musculus with 14 samples.

Results

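The 5 NF-kB subunit genes and 5 of their feedback inhibitors were followed in the lungs of mice with a mammary tumour and of normal mice, on expression arrays. The members were named as Nfkb1, Nfkb2, Rel, Rela and Relb for the subunits, and Nfkbia, Nfkbib, Nfkbie, Nfkbiz and Tnfaip3 for the inhibitors. Every probe set of the deposited table whose platform annotation gives 1 of these symbols was taken. This found 19 of 45101 probe sets, which stand for 9 of the 10 genes, and Nfkb1 was not analysed here. In the test by gene, 8 of the 10916 genes tested were members, because the probe set of Rel lay below the level required of all genes.

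All mice were BALB/c. In 4 samples, called 4T1 lungs here, the mouse carried a tumour of the metastatic mouse breast carcinoma line 4T1, grown from cells placed in the fourth mammary fat pad. In 5 samples, called 67NR lungs, it carried a tumour of the nonmetastatic line 67NR at the same site. Another 5 samples, called normal lungs, came from control mice that got PBS alone. The 4T1 and 67NR lungs were collected on day 6 after the injection or at a tumour volume near 50 mm3. No collection day was recorded here for the normal lungs. PBS perfusion removed the blood before collection. Each class of tumour is thus represented by a single cell line, and the tumours themselves were not measured. The labels number the samples but do not say that each is its own mouse, and the p-values therefore cover only the spread among the samples as deposited.

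NF-kB proteins are dimeric transcription factors that drive genes of inflammation, survival and immune cell recruitment. In resting cells inhibitor proteins of the IkB family hold them in the cytoplasm, and an upstream kinase complex frees them by marking the inhibitor for destruction. Freed dimers enter the nucleus and also switch on several of their own subunits and inhibitors, so the transcripts of these inhibitors are widely read as a sign of recent NF-kB activity. In the lung, epithelium, endothelium, macrophages and neutrophils all use the pathway.

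The RefSeq promoter table (GRCm38.p6) held 7 of the 10 member genes, and the 250 bases upstream of each transcription start were searched on both strands for the 10-base κB consensus, the sequence class that NF-kB dimers bind. It was found upstream of 5 genes, Nfkb2, Rel, Nfkbia, Nfkbie and Tnfaip3, and not in this window of Rela and Nfkbib. A match is held by 3.9% of all 32851 promoters given there and by 4.46% of all 27025 genes. The 130 bases upstream of 1 start of each of these 5 genes are shown because these are the members whose upstream bases hold the consensus. Capitals mark the matches, which overlap in places. A match is a description of the letters and not a measured site.
Nfkbia, chr12:55492648-55492777, minus strand: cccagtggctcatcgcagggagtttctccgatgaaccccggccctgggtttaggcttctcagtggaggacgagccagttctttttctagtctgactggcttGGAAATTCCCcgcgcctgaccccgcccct
Nfkb2, chr19:46304607-46304736, plus strand: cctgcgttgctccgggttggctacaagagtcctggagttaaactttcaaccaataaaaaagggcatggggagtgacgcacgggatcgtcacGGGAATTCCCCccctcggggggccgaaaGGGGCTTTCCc
Rel, chr11:23770970-23771099, minus strand: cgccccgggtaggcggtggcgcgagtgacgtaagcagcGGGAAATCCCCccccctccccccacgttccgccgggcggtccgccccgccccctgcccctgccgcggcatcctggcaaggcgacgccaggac
Nfkbie, chr17:45555570-45555699, plus strand: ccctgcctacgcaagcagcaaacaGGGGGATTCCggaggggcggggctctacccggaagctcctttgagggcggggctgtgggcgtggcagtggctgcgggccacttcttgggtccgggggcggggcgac
Tnfaip3, chr10:19015411-19015540, minus strand: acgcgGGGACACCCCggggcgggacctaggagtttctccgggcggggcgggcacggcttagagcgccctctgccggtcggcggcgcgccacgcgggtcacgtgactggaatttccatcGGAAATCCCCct
In Nfkbia the match begins 29 bases before the start, and in Nfkb2 the matches begin 39, 38 and 11 bases before it.

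Values are probe set intensities in array units as deposited, 1 per array. Array medians lay between 113.2 and 116.1. The difference of the Gapdh 3' and 5' control probe sets, a sign of RNA quality, was -0.44 ± 0.044 on the log2 scale in 4T1, -0.49 ± 0.082 in 67NR and -0.47 ± 0.059 in normal lungs (SD, n = 4, 5 and 5). All 15 lung marker genes with a probe set, among them the surfactant genes Sftpc and Sftpa1, were tested, and 0 passed the threshold in any comparison, with 0, 0 and 1 at an unadjusted p under 0.05 in 4T1 against normal, 67NR against normal and 4T1 against 67NR lungs. Over all genes tested, 6.56%, 9.13% and 12.4% had such an unadjusted p. Markers of neutrophils had a summed intensity of 35707 to 46578 in 4T1, 16607 to 19751 in 67NR and 14330 to 18683 in normal lungs. This sum covers the 22 of 27 listed markers with a probe set. Much of it in 4T1 lungs came from S100a8 and S100a9, with medians of 11716 and 11446. The 67NR replicates 1 and 3 stood apart by low clock output genes, with list means of -1.97 and -1.35 log2 relative to all arrays, against -0.41 to 0.71 on the other 12 arrays, so values for 67NR are also given without them.

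The member genes did not separate the groups. By limma's moderated test with Benjamini-Hochberg adjustment over all genes tested, 0 of 8 member genes passed an adjusted p of 0.05 in 4T1 against normal lungs, where 0.412% of all genes passed. The count was 0 of 8 in 67NR against normal lungs, where 0% passed, and 0 of 8 in 4T1 against 67NR lungs, where 0.76% passed. At an unadjusted p under 0.05 the member counts were 0, 0 and 2, against 6.56%, 9.13% and 12.4% of all genes in the same order of comparisons. The groups overlapped for all 8 members in each comparison, while 2.72%, 1.65% and 4.56% of all genes had groups that did not overlap. Both tumour comparisons use the same 5 normal arrays. Without 67NR replicates 1 and 3, the counts past the adjusted threshold were again 0 of 8, and the log2 changes in 4T1 against 67NR lungs ran from -0.26 for Nfkbib to 0.17 for Nfkbia.

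Counted by probe set with no filter on level, 0 of 19 passed in 4T1 against normal lungs, where 0.186% of 34958 probe sets passed. The same count of 0 was found in 67NR against normal lungs (0.00286% of all) and in 4T1 against 67NR lungs (0.217% of all). At an unadjusted p under 0.05 the counts were 0, 0 and 3, against 5.72%, 6.77% and 8.77% of all probe sets. No member probe set had groups free of overlap, against 2.45%, 1.23% and 3.16% of all.

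The intervals set limits on what these arrays leave possible. With the 1 probe set used for each gene, the 95% intervals of all 8 genes in 4T1 against normal lungs ended within 1.5-fold in either direction, and the widest bound was 1.32-fold. It was 1.40-fold in 67NR against normal lungs and 1.46-fold in 4T1 against 67NR lungs, and each of these bounds belonged to Nfkbie. Other probe sets of the same genes had wider intervals. That of Nfkbia 1448306_at reached 1.61-fold in 4T1 against normal and 1.74-fold in 4T1 against 67NR lungs, and that of Nfkb2 1425902_a_at reached 3.25-fold in 4T1 against normal lungs. The median log2 change of the 8 genes was -0.027, 0.053 and -0.049 in the 3 comparisons, against -0.00077, -0.0010 and -0.00079 over all genes tested. A p that misses the threshold does not show that the levels were alike. In whole lung, fewer cells of a type and less RNA per cell cannot be told apart.

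**Figure D1:**
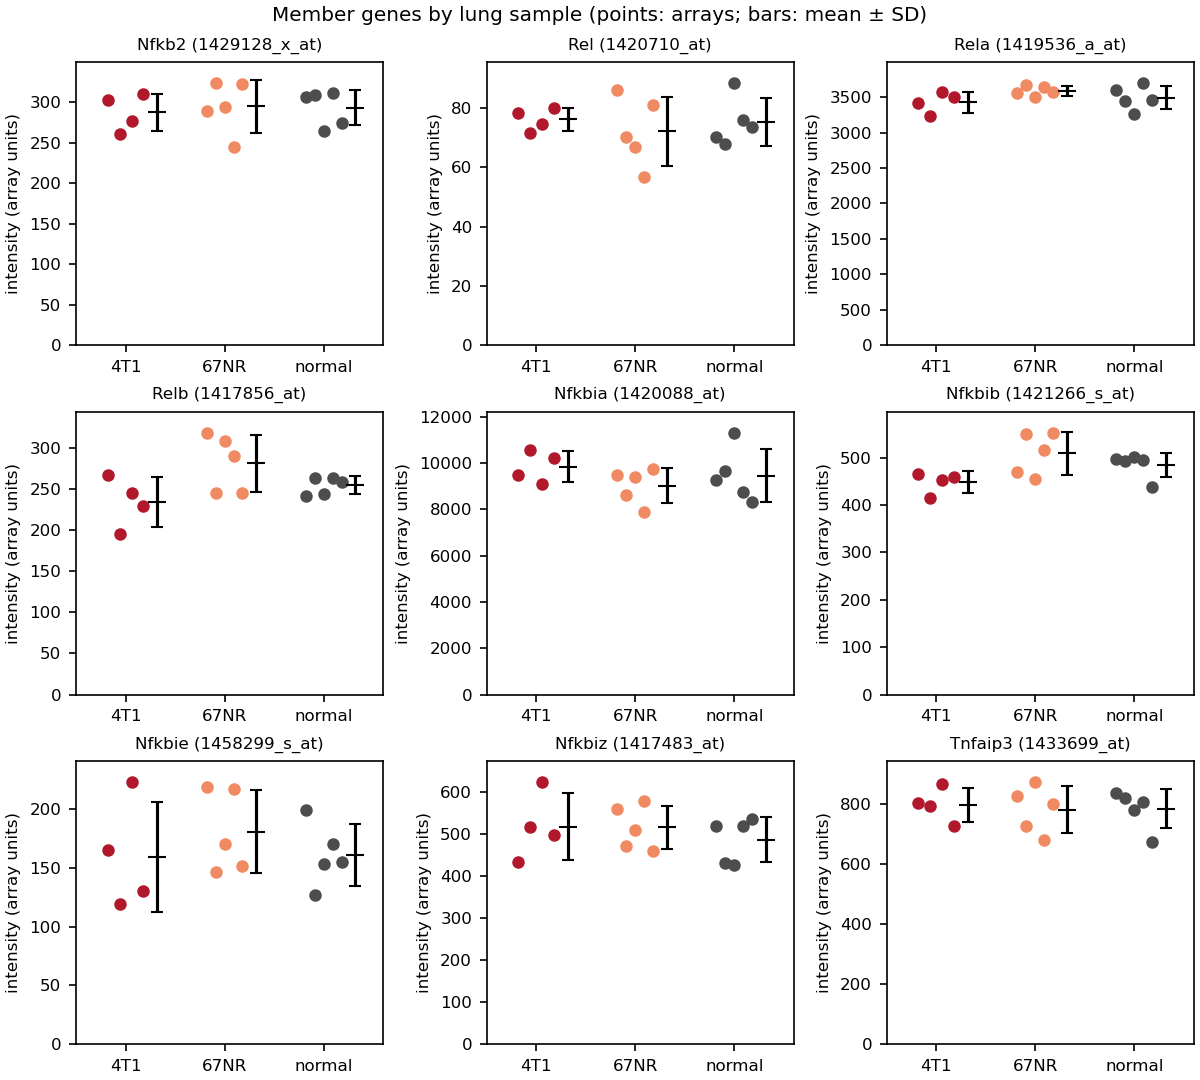
Intensity of the 9 member genes with a probe set, in array units, for each array of the 4T1, 67NR and normal lungs; the bar beside each group is its mean ± SD. The points of the 3 groups overlap in every panel.

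Rela, the activating subunit of the common dimer, had an intensity of 3418, 3228, 3569 and 3503 in the 4 4T1 lungs. It had 3563, 3675, 3501, 3645 and 3572 in the 67NR lungs and 3598, 3449.6, 3267, 3698 and 3461 in the normal lungs. The 67NR values lay close together inside the range of the normal values, and the lowest array of all was a 4T1 lung. Its log2 change was -0.027 (SE 0.045) in 4T1 against normal, 0.040 (SE 0.043) in 67NR against normal and -0.067 (SE 0.045, limma adjusted p = 0.596) in 4T1 against 67NR lungs. The last interval ran from -0.16 to 0.030.

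Relb, the activating subunit of the slower noncanonical branch of the pathway, had the smallest p of the members. Its intensity was 267, 195, 245 and 229.7 in 4T1 lungs, 318, 245, 308, 290.1 and 245 in 67NR lungs and 241, 264, 244, 263 and 259 in normal lungs. The normal values were close together, 3 of the 67NR arrays lay above all of them, and 2 of the 4T1 arrays lay below all of them. The mean log2 level was 7.96 ± 0.18 in 4T1 (SD, n = 4), 8.21 ± 0.17 in 67NR (n = 5) and 8.08 ± 0.058 in normal lungs (n = 5), so normal lungs lay between both tumour groups.

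The log2 change of Relb in 4T1 against 67NR lungs was -0.25 (SE 0.090, limma adjusted p = 0.263, interval -0.44 to -0.055), which did not pass. Neither tumour group passed against normal lungs, and both intervals held 0. The changes were -0.12 (SE 0.090, limma adjusted p = 0.932) in 4T1 and 0.13 (SE 0.085, adjusted p = 0.692) in 67NR against normal lungs. Without 67NR replicates 1 and 3, the 2 brightest arrays for Relb, the value in 4T1 against 67NR lungs was -0.15 (adjusted p = 0.567).

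Rel, the subunit best known from lymphocytes, was measured by 1 dim probe set that stayed below the level filter. It had 78.5, 71.6, 74.8 and 80.2 in 4T1 lungs, 86.2, 70.4, 66.9, 56.8 and 80.9 in 67NR lungs and 70.2, 67.9, 88.4, 76.1 and 73.6 in normal lungs. The lowest and the next-to-highest arrays were both 67NR lungs, and the 4T1 values lay inside the range of either other group. Its log2 changes by probe set were 0.019 (SE 0.093) in 4T1 against normal, -0.055 (SE 0.088) in 67NR against normal and 0.074 (SE 0.093) in 4T1 against 67NR lungs.

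Nfkb2, which encodes the precursor of the noncanonical DNA-binding subunit, was read by 2 probe sets that did not move together. The probe set used for the gene, 1429128_x_at, had 303, 261, 278 and 310.3 in 4T1 lungs, 289.6, 324, 294, 245 and 323 in 67NR lungs and 307, 309, 265, 312 and 275 in normal lungs. These groups covered nearly the same range, with log2 changes of -0.027 (SE 0.081), 0.0034 (SE 0.077) and -0.031 (SE 0.081) in 4T1 against normal, 67NR against normal and 4T1 against 67NR lungs.

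The other Nfkb2 probe set, 1425902_a_at, had 50.2, 278, 310.2 and 239 in 4T1 lungs. It had 385, 52.5, 403, 49.2 and 305 in 67NR lungs and 38.7, 232, 222, 247 and 227 in normal lungs. On 4 of the 14 arrays it was low, from 38.7 to 52.5, and on the other 10 it lay between 222 and 403. The low arrays were 4T1 replicate 1, 67NR replicates 2 and 4 and normal replicate 1, so the step ran across the groups and not between them. Its intervals were wide for that reason, -1.44 to 1.70 in 4T1 against normal and -1.44 to 1.52 in 67NR against normal lungs, and the correlation of the 2 probe sets within groups was -0.023 over 14 arrays.

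**Figure D2:**
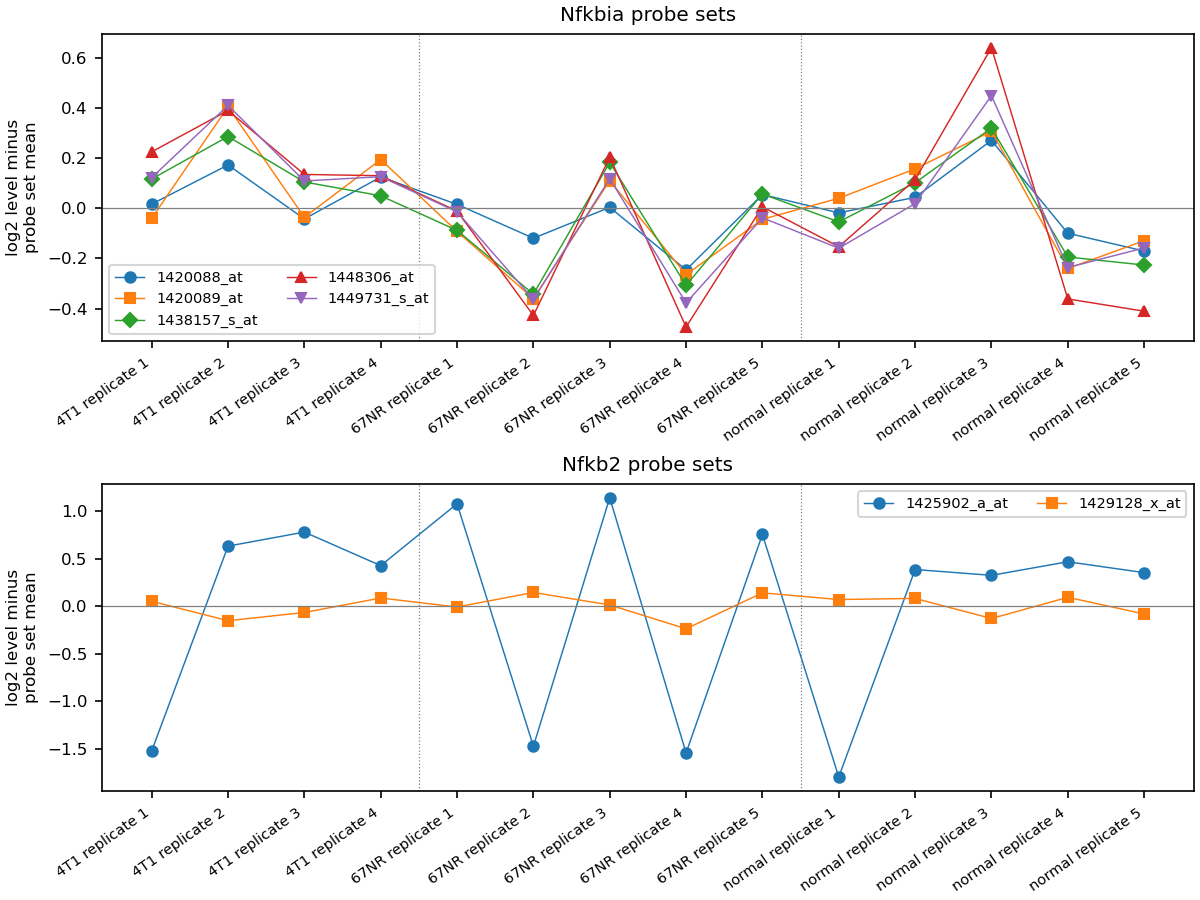
Log2 level of each Nfkbia probe set (top) and each Nfkb2 probe set (bottom), minus that probe set's own mean, on the 14 arrays; dotted lines divide 4T1, 67NR and normal lungs. The 5 Nfkbia probe sets rise and fall together, while 1425902_a_at of Nfkb2 drops on 4 arrays where 1429128_x_at does not.

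Nfkbia, which encodes IkB alpha, the inhibitor that NF-kB itself restores after activation, was covered by 5 probe sets. The one used for the gene, 1420088_at, had 9488, 10568, 9104 and 10227 in 4T1 lungs. It had 9481, 8634, 9402, 7909 and 9741 in 67NR lungs and 9256, 9664, 11315, 8754 and 8329 in normal lungs. The highest array and the second lowest were both normal lungs, and the groups overlapped throughout. The log2 change was 0.063 (SE 0.087) in 4T1 against normal, -0.063 (SE 0.082) in 67NR against normal and 0.13 (SE 0.087, limma adjusted p = 0.605) in 4T1 against 67NR lungs.

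The other Nfkbia probe sets had the same signs. For 1448306_at the intensities were 3883, 4356, 3647 and 3634 in 4T1 lungs, 3296, 2466, 3826, 2388 and 3333 in 67NR lungs and 2984, 3595, 5183, 2583 and 2495 in normal lungs. Normal replicate 3 was the brightest array, and 67NR replicates 2 and 4 were the dimmest. Over the 5 probe sets the log2 change was 0.063 to 0.25 in 4T1 against normal, -0.16 to -0.063 in 67NR against normal and 0.13 to 0.36 in 4T1 against 67NR lungs, and none passed. The largest in 4T1 against 67NR lungs was that of 1448306_at at 0.36 (SE 0.20, interval -0.077 to 0.80), and 1449731_s_at had 0.33 (SE 0.14, limma adjusted p = 0.545). These probe sets read the same transcript on the same arrays, with within-group correlations of 0.84 to 0.96 between them, so their shared sign is 1 observation and not 5.

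Nfkbib, which encodes IkB beta, a slower member of the inhibitor family, was the other member with an unadjusted p under 0.05. Its probe set 1421266_s_at had 466, 415, 453 and 459 in 4T1 lungs, 469, 549.9, 455, 517 and 552 in 67NR lungs and 496, 493, 500.4, 495 and 438 in normal lungs. The 4T1 arrays were all in the lower part of the range, but 67NR replicate 3 and normal replicate 5 were among them. The log2 change was -0.17 (SE 0.065, limma adjusted p = 0.285) in 4T1 against 67NR, -0.11 (SE 0.065) in 4T1 against normal and 0.065 (SE 0.062) in 67NR against normal lungs.

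Without 67NR replicates 1 and 3 the value of Nfkbib in 4T1 against 67NR lungs was -0.26 (adjusted p = 0.0914), the smallest adjusted p of any member under any setting tried. The second Nfkbib probe set, 1446718_at, which was dimmer, had the other sign in that comparison, at 0.13 (SE 0.16, interval -0.22 to 0.47). Its intensities ran from 102 to 145 in 4T1, from 74.3 to 130.4 in 67NR and from 85.1 to 139 in normal lungs.

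Nfkbie, which encodes IkB epsilon, had the largest standard errors of the 8 tested genes. Its probe set 1458299_s_at had 165, 119, 223 and 131 in 4T1 lungs, 219, 147, 170.2, 217 and 151 in 67NR lungs and 199.6, 127, 154, 171 and 155 in normal lungs. The lowest and the highest of all 14 values were both 4T1 lungs. The log2 change was -0.037 (SE 0.17) in 4T1 against normal, 0.15 (SE 0.16) in 67NR against normal and -0.18 (SE 0.17) in 4T1 against 67NR lungs. The second probe set, 1431843_a_at, had changes of -0.015, 0.096 and -0.11 in the same comparisons, and the correlation of both within groups was 0.62.

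Nfkbiz encodes the nuclear inhibitor IkB zeta, which can also help to activate a group of secondary inflammatory genes. Its probe set 1417483_at had 435, 517, 624 and 498 in 4T1 lungs, 561, 472, 510.4, 578 and 461 in 67NR lungs and 520.3, 432, 426, 521 and 537 in normal lungs. The 4T1 values spanned almost the whole range of the other groups, and 4T1 replicate 3 was the brightest array. The change was 0.082 (SE 0.10) in 4T1 against normal, 0.083 (SE 0.098) in 67NR against normal and -0.00029 (SE 0.10) in 4T1 against 67NR lungs. The 2 other probe sets of Nfkbiz had negative values in 4T1 against normal lungs, -0.15 (SE 0.11) for 1448728_a_at and -0.13 (SE 0.13) for 1457404_at, so the 3 did not give 1 direction.

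Tnfaip3 encodes a ubiquitin-editing enzyme that switches off the signal upstream of the kinase complex. Its probe set 1433699_at had 802, 794, 865 and 726 in 4T1 lungs, 827, 726, 873, 679.7 and 799 in 67NR lungs and 838, 821, 781, 807 and 674 in normal lungs. All 3 groups covered nearly the same range. The log2 changes were the smallest of the inhibitors against normal lungs, 0.024 (SE 0.081) in 4T1 and -0.0072 (SE 0.076) in 67NR lungs, and 0.031 (SE 0.081) in 4T1 against 67NR lungs. Its second probe set, 1450829_at, had changes of -0.074, -0.061 and -0.013.

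**Figure D3:**
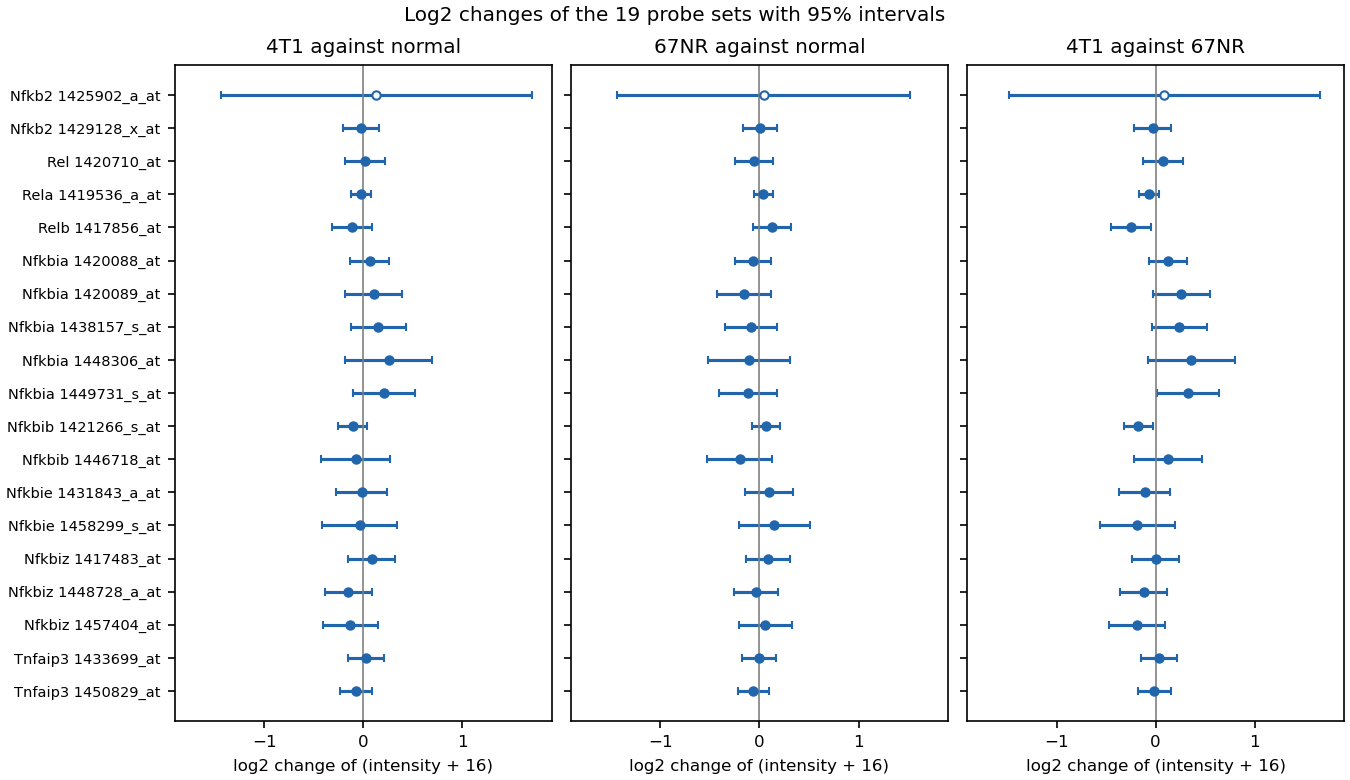
Log2 change of (intensity + 16) of the 19 member probe sets, with 95% intervals, in 4T1 against normal, 67NR against normal and 4T1 against 67NR lungs; the open point is Nfkb2 1425902_a_at. In the last panel the intervals of Relb, Nfkbib 1421266_s_at and Nfkbia 1449731_s_at leave out 0 before adjustment.

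Among themselves the members varied with no pair past the threshold. Within groups, 36 pairs of the 9 genes had Pearson correlations of -0.69 to 0.68 over 14 arrays. By a two-sided permutation test within groups with 100000 resamples, 4 pairs had p under 0.05 and 0 of 36 passed after Benjamini-Hochberg adjustment. The lowest was Rela with Nfkbia, r = -0.69 (rho = -0.61, permutation p = 0.0149 and 0.0287, adjusted p = 0.372 and 0.457), and r was -0.50 without the normal replicates 3 and 4, the arrays farthest from the median of Rela. It was the 1 pair that passed when probe sets of a gene were averaged (r = -0.81, permutation adjusted p = 0.0392).

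Each member was also set against the mean of 4 gene lists within groups, 36 relations in all, which were added after the data were seen. The list of glucocorticoid response genes, the targets of the adrenal stress hormone, had 17 genes and held no member. Its mean was highest on normal replicate 3 at 0.69 and 4T1 replicate 2 at 0.58 log2 relative to all arrays, and lowest on normal replicate 4 at -0.43. Rela was lower on arrays where the list was higher, with r = -0.90 (permutation p = 0.00027, adjusted p = 0.00972) and rho = -0.90 (p = 0.00021, adjusted p = 0.00756). Nfkbia, a known target of the glucocorticoid receptor, was higher on those arrays, with r = 0.85 (p = 0.00118, adjusted p = 0.0212), but its rank correlation did not pass (rho = 0.74, p = 0.00517, adjusted p = 0.0931). The adjustment covered these 36 relations only. How many of all genes follow the list as closely was not computed, so neither relation can be called particular to Rela or Nfkbia.

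Without 4T1 replicate 2 and normal replicate 3, the arrays farthest from the median of the list, r was -0.79 for Rela and 0.70 for Nfkbia. With 4T1 replicate 2 alone left out, r was -0.89 for Rela and 0.84 for Nfkbia (permutation adjusted p = 0.0608 each). With normal replicate 3 alone left out, r was -0.85 for Rela (adjusted p = 0.0562) and 0.71 for Nfkbia (adjusted p = 0.211). Nfkbia also missed the threshold without 4T1 replicate 4 (r = 0.85, adjusted p = 0.0509) or normal replicate 2 (r = 0.84, adjusted p = 0.0731). The whole range of Rela over the 14 arrays was narrow, 11.66 to 11.86 log2, and that of Nfkbia was 12.95 to 13.47.

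**Figure D4:**
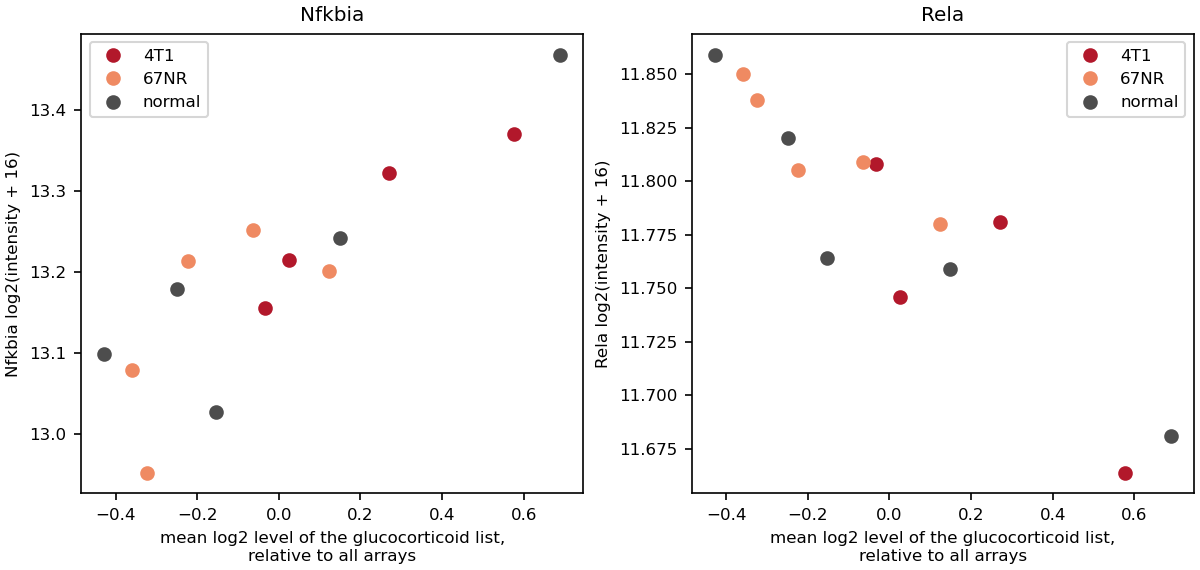
Log2 level of Nfkbia (left) and Rela (right) on each array against the mean log2 level of the 17 glucocorticoid response genes relative to all arrays, coloured by 4T1, 67NR and normal lungs. Nfkbia goes up and Rela goes down along the axis, and the 2 arrays at the right are 4T1 replicate 2 and normal replicate 3.

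With the immediate early, clock output and neutrophil lists, 0 of the 27 relations passed. Relb had r = -0.68 and Nfkbib r = 0.70 with clock output genes (adjusted p = 0.226 each). The genes most like each member over the 14 arrays are named by rule, as a description. For Rela they were Ier3 and Myct1 (r = 0.90 each), for Nfkbia Tmem204 and Rhob (0.90 each), for Relb Ablim3 and Ptpmt1 (0.90 each) and for Nfkbib Mid1ip1 (0.94) and Aida (0.88). For Nfkb2 they were 4933433G19Rik (0.89) and Tomm34 (0.88), for Rel Pdha1 (0.89) and Egln1 (0.85), and for Nfkbie Dnajc12 (0.89) and Trmt112 (0.88). For Nfkbiz they were Ptbp2 (0.90) and Crybg1 (0.88), and for Tnfaip3 Cyp26b1 and Unk (0.82 each). The best correlation of a tested gene with any other had a median of 0.88 over all 10916 genes, with 0.82 and 0.93 at the lowest and highest decile, and the best values of the 9 members ran from 0.82 to 0.94.

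Of 4 lists of other pathway genes, only the stimuli and receptors and the inducible targets held genes that passed the same test. Of 24 tested IKK kinases and signalling adaptors, 0 passed in each comparison, with 2, 1 and 4 at an unadjusted p under 0.05. Of all genes tested, 0.412%, 0% and 0.76% passed, and 6.56%, 9.13% and 12.4% had such an unadjusted p. The adaptor Myd88, which carries signals of Toll-like and interleukin 1 receptors, stood at 0.29 log2 (SE 0.071, limma adjusted p = 0.157) in 4T1 against normal and 0.20 (adjusted p = 0.260) in 4T1 against 67NR lungs. Irak2, a kinase of the same receptor branch, had -0.17 (adjusted p = 0.611) in 4T1 against normal lungs. Map3k8, a kinase upstream of ERK signalling, had 0.41 (SE 0.17, adjusted p = 0.326) in 4T1 against 67NR lungs. In 67NR against normal lungs the adaptor Traf5 had 0.18 (adjusted p = 0.372) and Rnf31, the catalytic subunit of the linear ubiquitin ligase, had 0.19 (adjusted p = 0.564).

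Of 22 other inhibitors and negative regulators tested, 0 passed in each comparison, with 0, 1 and 1 at an unadjusted p under 0.05. Such a p was found for 6.56%, 9.13% and 12.4% of all genes tested. Bcl3, an atypical nuclear member of the IkB family, had 0.37 (SE 0.15, limma adjusted p = 0.509) in 67NR against normal lungs. The ubiquitin ligase Peli1 had 0.14 (SE 0.058, adjusted p = 0.331) in 4T1 against 67NR lungs and -0.11 (adjusted p = 0.599) in 67NR against normal lungs. Otulin, which removes linear ubiquitin chains, had 0.13 (adjusted p = 0.504) in 4T1 against 67NR lungs. In 4T1 against normal lungs N4bp1 had 0.12 (adjusted p = 0.775) and Tax1bp1, an adaptor of Tnfaip3, had 0.085 (adjusted p = 0.886).

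Of 18 tested stimuli and receptors, Il1b alone passed, in 4T1 against normal and in 4T1 against 67NR lungs. In these comparisons 0.412% and 0.76% of all genes tested passed. An unadjusted p under 0.05 was found for 5 in 4T1 against normal, 2 in 67NR against normal and 4 in 4T1 against 67NR lungs, beside 6.56%, 9.13% and 12.4% of all genes tested. The cytokine Il1b, a strong activator of NF-kB and itself a target, ran from 1444 to 3085 in 4T1 lungs (median 2288), from 530.0 to 1063 in 67NR lungs (740.4) and from 474 to 862 in normal lungs (637). Every 4T1 array lay above every other array. Il1b rose by 1.74 (SE 0.23, limma adjusted p = 0.00117) in 4T1 against normal and by 1.56 (SE 0.23, adjusted p = 0.0037) in 4T1 against 67NR lungs, and had 0.17 (adjusted p = 0.852) in 67NR against normal lungs. In that comparison the receptor Cd40 had 0.20 (adjusted p = 0.350) and the tumour necrosis factor receptor Tnfrsf1b had 0.18 (adjusted p = 0.436).

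Of 23 tested inducible target genes, 1 rose in 4T1 against normal lungs, 3 rose in 4T1 against 67NR lungs and 0 passed in 67NR against normal lungs. The shares of all genes that passed were 0.412%, 0.76% and 0% in that order. An unadjusted p under 0.05 was found for 5 in 4T1 against normal, 5 in 67NR against normal and 11 in 4T1 against 67NR lungs, beside the same 6.56%, 9.13% and 12.4% of all genes. The matrix metalloproteinase Mmp9 ran from 533 to 928 in 4T1, from 237 to 342 in 67NR and from 248 to 343 in normal lungs. It rose by 1.29 (SE 0.16, limma adjusted p = 0.000747) against normal and by 1.26 (SE 0.16, adjusted p = 0.0011) against 67NR lungs. Lcn2, which binds bacterial iron carriers, rose by 0.50 (SE 0.081, adjusted p = 0.00902) against 67NR lungs and had 0.32 (adjusted p = 0.178) against normal lungs. In 67NR against normal lungs the coagulation starter F3 had -0.35 (SE 0.12, adjusted p = 0.405) and Lcn2 had -0.18 (adjusted p = 0.519). Without 67NR replicates 1 and 3 the call of Lcn2 was lost (adjusted p = 0.0678). The formyl peptide receptor Fpr2 rose by 0.43 (SE 0.086, adjusted p = 0.0336) against 67NR lungs, a call lost under 9 of 28 alternatives. The median log2 change of the 23 genes was 0.023 in 4T1 against normal and -0.019 in 4T1 against 67NR lungs, beside -0.00077 and -0.00079 over all genes.

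The targets Mmp9, Lcn2 and Fpr2 stand also on the list of neutrophil markers. Of its 22 markers with a probe set, 14 met the level filter and were tested. Of these, 9 rose in 4T1 against normal and 11 in 4T1 against 67NR lungs, while 0 passed in 67NR against normal lungs. The shares of all genes that passed were 0.412%, 0.76% and 0% in that order. S100a9, a major cytosolic protein of neutrophils, rose by 2.48 (SE 0.19) against normal and 2.22 (SE 0.19) against 67NR lungs, and the chemokine receptor Cxcr2 by 2.41 and 2.18 (SE 0.18 each). Stfa2l1, of the stefin A protease inhibitor family, rose by 3.85 and 3.71 (SE 0.30 each). Its mean level was 7.16 log2 in normal and 7.31 in 67NR lungs, below the 7.35 required of tested genes. It thus came into the test, and into these counts, only through its 4T1 arrays. S100a8, the partner of S100a9, rose by 2.38 against normal lungs, and the granule protein gene Ngp rose by 2.68 against 67NR lungs. In 67NR against normal lungs Clec4d had 0.34 (limma adjusted p = 0.300) and Hp had 0.12 (adjusted p = 0.519). The part of neutrophils in the values of Il1b and the 3 target genes was not tested. The within-group correlation of the neutrophil list with each member did not pass either, and was 0.58 for Relb (adjusted p = 0.226) and -0.23 for Nfkbia (adjusted p = 0.66).

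Other markers gave 0 calls in every comparison, over 9 tested B cell, 10 T cell, 7 dendritic cell and 9 alveolar macrophage genes. Of 9 clock output genes 0 passed, with 0 in 4T1 against normal, 9 in 67NR against normal and 8 in 4T1 against 67NR lungs at an unadjusted p under 0.05. Of 20 immediate early genes 0 passed, with 2, 6 and 1 at an unadjusted p under 0.05 and a median log2 change of -0.10 in 4T1 against normal, -0.21 in 67NR against normal and 0.070 in 4T1 against 67NR lungs. Over all genes tested, 6.56%, 9.13% and 12.4% had an unadjusted p under 0.05 in the same comparisons. Ier2, an early response gene, had -0.30 (SE 0.082, limma adjusted p = 0.252) in 4T1 against normal and -0.21 (adjusted p = 0.443) in 67NR against normal lungs. The zinc finger factor Egr1 had -0.69 (adjusted p = 0.503) in 4T1 against normal lungs and Klf4 had -0.30 (adjusted p = 0.468) in 67NR against normal lungs. In 4T1 against 67NR lungs Klf6 had 0.12 (adjusted p = 0.398) and Egr2 had -0.16 (adjusted p = 0.474). Of 17 glucocorticoid response genes Lcn2 alone passed, in 4T1 against 67NR lungs, and the median was 0.22 in 4T1 against normal, -0.22 in 67NR against normal and 0.36 in 4T1 against 67NR lungs. Tsc22d3, a classic glucocorticoid target, had 0.48 (SE 0.29, limma adjusted p = 0.890) in 4T1 against normal lungs. In 67NR against normal lungs the clock gene Per1 had -0.70 (adjusted p = 0.455) and the cell cycle inhibitor Cdkn1a had 0.71 (adjusted p = 0.475).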

How the data were processed

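The authors deposited 1 table of linear probe set intensities for 14 Affymetrix arrays. Per the labels' protocols, biotin-labelled cRNA was made from 3 µg of total lung RNA per sample. The authors' background correction, summary and normalisation are steps not given in the sources used here. No detection calls were used, and precision is set by how many arrays there are. Symbols came from the platform annotation of 2016; 34958 carried 1 symbol, 932 several and 9211 none, and only those with 1 symbol were used. All 19 member probe sets matched the RefSeq gene table by Entrez identifier, with 0 symbols that differ.

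Analysis ran on log2(intensity + 16), a scale on which changes of dim genes come out too small. Each of 18194 genes was represented by its brightest probe set by mean log2 value, and the upper 60% of genes by level (over 7.35 log2) were tested. A linear model, 1 coefficient for each group, took in all 14 arrays by lmFit, then eBayes at its defaults, in limma 3.58.1 under R 4.3.3, with 11 degrees of freedom left for the residuals. The two-sided p-values were adjusted over all genes by the Benjamini-Hochberg method, with 0.05 as the threshold. A second fit held all 34958 probe sets with 1 symbol and no filter. The fits by gene were tested on simulated data, drawn as independent normal noise with each gene's own spread. Changes of 0.25 and 0.5 log2 were planted in 67 genes each, and of 1 log2 in 66. In 4T1 against normal, 67NR against normal and 4T1 against 67NR lungs, 43.3%, 40.3% and 28.4% of planted changes of 0.25 log2 were called. For planted changes of 0.5 log2 the shares were 77.6%, 94% and 74.6%. False calls numbered 13, 8 and 8. The 95% intervals held the true value for 95%, 94.9% and 94.6% of genes, with noise that was normal by design. The shares called depend on how many changes were planted. They check the code and are not the power for the members on the real arrays.

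The members and gene lists were chosen with earlier results of these data known. By rule, every member and every one of its probe sets is named. From each described list up to 4 genes past the threshold are named, by size of change, and otherwise the 2 with the smallest p as not past it; the clock, lung, lymphocyte, dendritic cell and macrophage lists are given by counts, with no gene picked from them for its change. The 2 non-member genes with the highest correlation to each member are named too. Replicate numbers recur between groups. Over 13 pairs of same-numbered arrays of different groups, the correlation of deviations from the group means ran from -0.34 to 0.22 and was over 0.1 in 3, so the numbers were not taken to pair samples. Alternatives changed the normalisation, offset, variance model, arrays, filter and choice of probe set.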

Additional observations from a re-analysis of the deposited data

Results flagged for a closer look

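Each of 57 sets of values (19 probe sets in 3 groups) was searched for an array far from the rest of its group by Dixon's test, which by chance marks about 5% of groups, and 6 were marked. In Nfkb2 1425902_a_at, 4T1 replicate 1 had 50.2 against 239 to 310.2 on the other 4T1 arrays, and normal replicate 1 had 38.7 against 222 to 247 on the other normal arrays. In Nfkbia 1449731_s_at, 4T1 replicate 2 had 6843 against 5554 to 5617. Normal replicate 5 was low in both Nfkbib probe sets, with 438 against 493 to 500.4 in 1421266_s_at and 85.1 against 127 to 139 in 1446718_at. In Nfkbiz 1457404_at, 4T1 replicate 1 had 98.3 against 152 to 165.

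By limma's direct test of 4T1 against 67NR lungs, 83 of 10916 genes passed, 61 of them higher in 4T1 lungs, and 11 were neutrophil markers. Among the 83, the log2 differences of 9 genes from the lists described above were 1.56 for Il1b, 1.26 for Mmp9, 0.50 for Lcn2, 0.43 for Fpr2, 3.71 for Stfa2l1, 2.22 for S100a9, 2.18 for Cxcr2, 2.102 for S100a8 and 2.68 for Ngp. Stfa2l1 met the level filter only through its 4T1 arrays. No member was among the genes that differed in this way.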

How the results depend on the processing

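Over 28 alternatives by gene and 25 by probe set, 663 member gene values and 1422 member probe set values were recomputed and 0 passed. The sign changed in 47 and 71 of them, all of values that had not passed, and the smallest adjusted p was 0.0914 by gene and 0.221 by probe set. With the replicate block the counts of member genes and probe sets past the threshold were 0 in every comparison, and it changed no other call of the member and pathway counts. Among target genes, the count in 4T1 against normal lungs was 0 with the upper 40% of genes by level, which leaves Mmp9 untested, and 2 (Mmp9 and Clec4e) with the mean of probe sets or the most variable probe set. With 1 array left out it ran from 1 to 2, with Fpr2 added without 4T1 replicate 2. In 4T1 against 67NR lungs it ran from 2 to 6 with 1 array left out, with Ptgs2, Slfn2 and Vcam1 added without 67NR replicate 5, and was 1 (Mmp9) without 67NR replicates 1 and 3, a choice made after seeing the data. Among stimuli and receptors, the count in 4T1 against 67NR lungs was 2 (Il1b and Cd40) with array weights, and in 4T1 against normal lungs it ran from 1 to 2 with 1 array left out, Tnfrsf1b being added without 4T1 replicate 2. The adjusted p of Lcn2 in 4T1 against 67NR lungs ran from 0.00404 to 0.0678 and that of Fpr2 from 0.0113 to 0.118, with 1 and 9 of 28 alternatives over the threshold. These genes outside the rule were named after their values were seen. With the mean of probe sets 1 pair of members passed instead of 0, Rela with Nfkbia (r = -0.81, permutation adjusted p = 0.0392). With 1 array left out, r with the glucocorticoid list ran from -0.93 to -0.85 for Rela and from 0.71 to 0.88 for Nfkbia, and 2 and 4 of these fits missed the threshold. The cause of these shifts was not tested, apart from Mmp9 leaving the test. Dim probe sets such as that of Rel could not be told from background, since no detection calls were used.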

Other observations

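The step in Nfkb2 1425902_a_at was set against all other probe sets with 1 symbol, after its values were seen. The probe sets most like it over the 14 arrays were those of Adam3 (r = 0.92), Pcx (0.85) and Sost (0.85), and those most opposed were Slc35a5 (-0.92), Bola2 (-0.86) and Them7 (-0.82). On 4T1 replicate 1, 67NR replicates 2 and 4 and normal replicate 1, where the Nfkb2 probe set was low, Slc35a5 1419970_at had 170.1, 171, 176 and 166, against 129 to 154 on the other 10 arrays. Adam3 1448329_at had 7.47, 6.74, 9.21 and 9.12 on these arrays, against 22.1 to 68.9 on the others. All values of Adam3, Sost and Them7 lay below the lowest array median of 113.2. They were too dim to be told from background without detection calls. These are descriptions of 14 arrays, chosen for their likeness.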
